A study of Mus musculus with 2 samples.

Results

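The Mir15, Mir16, Mir195 and Mir497 family was followed in the hippocampus of 14-day-old female mice by microRNA sequencing. Its members were taken by gene symbol in the GENCODE M21 annotation as Mir15a, Mir16-1, Mir15b, Mir16-2, Mir195a and Mir497, which are 6 of the 2202 microRNA genes in the deposited tables. The animals were B6CASTF1/J hybrids, bred from C57BL/6J and CAST/EiJ parents, with no treatment named in the labels. The labels give 1 group of 2 biological replicates. The labels list 3 females for each replicate, so every library stands for a pool, and the label "layer of hippocampus" does not say which layer. With 1 library per pool, a difference between pools cannot be told apart from one in library preparation.

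MicroRNAs are short RNAs that guide Argonaute proteins to messenger RNAs, mostly through bases 2 to 8 of the mature strand, the seed. The family shares 1 seed and is known for repressing cyclins, cyclin-dependent kinases and the survival factor Bcl2. In human chronic lymphocytic leukaemia the locus of the Mir15a and Mir16-1 orthologues is often lost, and in the mouse heart the family takes part in the postnatal exit of muscle cells from the cell cycle. At 14 days most hippocampal neurons are past division, while the dentate gyrus still forms new ones.

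The 6 genes lie as 3 closely spaced gene pairs. On the mouse build GRCm38 (mm10), Mir15a (ENSMUSG00000093007.1) lies at chr14:61632027-61632110 on the minus strand, within an intron of the noncoding gene Dleu2. Mir16-1 (ENSMUSG00000092995.1), 54 bases away at chr14:61631880-61631972, overlaps an exon of Dleu2. Mir15b (ENSMUSG00000065580.2) at chr3:69009772-69009835 and Mir16-2 (ENSMUSG00000065606.1) at chr3:69009902-69009996 lie 66 bases apart on the plus strand, within an intron of Smc4, which encodes a condensin subunit. Mir497 (ENSMUSG00000105220.1) at chr11:70234717-70234800 and Mir195a (ENSMUSG00000065411.2) at chr11:70235042-70235135 lie 241 bases apart on the plus strand. No M21 gene overlaps Mir195a, and Mir497b (ENSMUSG00000070109.2), on the minus strand at chr11:70234692-70234816, covers the whole of Mir497.

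The mature 5p arms are shown because they carry the shared seed and decide which reads can be given to 1 gene. They are copied from RefSeq on GRCm38.p6, which held mature entries for all 6 genes, and are written 5′ to 3′ with the seed in capitals. The 6 genes encode 5 distinct 5p arms, since Mir16-1 and Mir16-2 encode the same one.
miR-15a-5p: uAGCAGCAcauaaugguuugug
miR-15b-5p: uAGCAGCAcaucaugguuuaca
miR-16-5p: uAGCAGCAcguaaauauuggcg
miR-195a-5p: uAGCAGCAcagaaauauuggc
miR-497a-5p: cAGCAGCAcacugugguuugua

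Outside the seed the arms fell into unequal degrees of likeness. Aligned from base 1 without gaps, miR-195a-5p matched miR-16-5p at 19 of 21 positions, differing by the substitutions G10A and U11G, with the base of miR-16-5p first and positions counted from its 5′ end. miR-15a-5p matched miR-15b-5p at 18 of 22 positions. miR-497a-5p matched miR-16-5p at 11 of 22 positions, with U1C among its changes, and matched miR-15a-5p at 17 of 22. In RefSeq's 1738 mature entries, 11 (0.633%) had the seed AGCAGCA, from the 6 members and from Mir195b, Mir322, Mir6342, Mir6353 and Mir6419.

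The identity of miR-16-5p limits what the Mir16 counts hold. Among the 2202 hairpins, the full miR-16-5p sequence occurred in both Mir16-1 and Mir16-2. The run shared by these hairpins is 23 bases long, the arm and 1 base past its 3′ end, uagcagcacguaaauauuggcgu. Reads that lie inside that run match both loci, and the tables keep multi-mapping reads, 37.1% of all reads in replicate 2 and 40.8% in replicate 1, on a separate line outside the gene counts. That these reads enter no gene count is inferred from the columns, whose genes and separate lines add up to the same total, since the rule for multi-mapping is not stated in the sources used here. On that reading the counts of Mir16-1 and Mir16-2 cannot be taken as the level of miR-16-5p. The 3p arms, shown because they do tell the copies apart, each occurred in 1 hairpin. Capitals again mark bases 2 to 8.
miR-16-1-3p: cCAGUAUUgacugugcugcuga
miR-16-2-3p: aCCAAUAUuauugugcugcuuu

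For the other 4 members the 5p arm occurred at 1 locus. miR-15a-5p and miR-15b-5p were each unique among the hairpins from their first 12 bases on. miR-195a-5p needed 17 bases, because it shares its first 16 with miR-195b of the chromosome 2 gene Mir195b. The arms of Mir497 are also found, as the reverse complement, in Mir497b, which is the same place on the opposite strand. Other sites in the genome were not searched. The counts do not separate the arms of a hairpin, so no member's count can be split into 5p and 3p.

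The library of replicate 2 held 2852269 counts in microRNA genes and that of replicate 1 held 4764797. Levels are given as CPM, counts scaled to these totals, on the strand column with the larger total. A count of 0 allows up to 1.05 CPM in replicate 2 and up to 0.630 in replicate 1. Intervals and floors cover counting error only, since the sources used here name no molecular identifiers. Of 9 neuronal marker genes, all had at least 10 counts in both libraries, beside 18.6% of all microRNA genes. Their summed shares were 2.83% in replicate 2 and 2.64% in replicate 1. The liver microRNA Mir122 stood at 25.6 CPM in replicate 2 and 41.1 CPM in replicate 1. The listed choroid plexus and ciliated-cell genes summed to 0.119% in replicate 2 and 0.395% in replicate 1, and those of vessels to 2.03% in replicate 2 and 1.60% in replicate 1.

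All 6 members were detected, with at least 10 counts in both libraries, a level that 18.6% of all microRNA genes reached. They held 0.397% of the counts in replicate 2 (exact Clopper-Pearson 95% interval 0.389 to 0.404) and 0.522% in replicate 1 (0.516 to 0.529). The mean was 0.459% ± 0.0886 (SD, n = 2). Without Mir195a, the remaining 5 genes held 0.317% (0.310 to 0.324) in replicate 2 and 0.303% (0.298 to 0.308) in replicate 1.

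**Figure D1:**
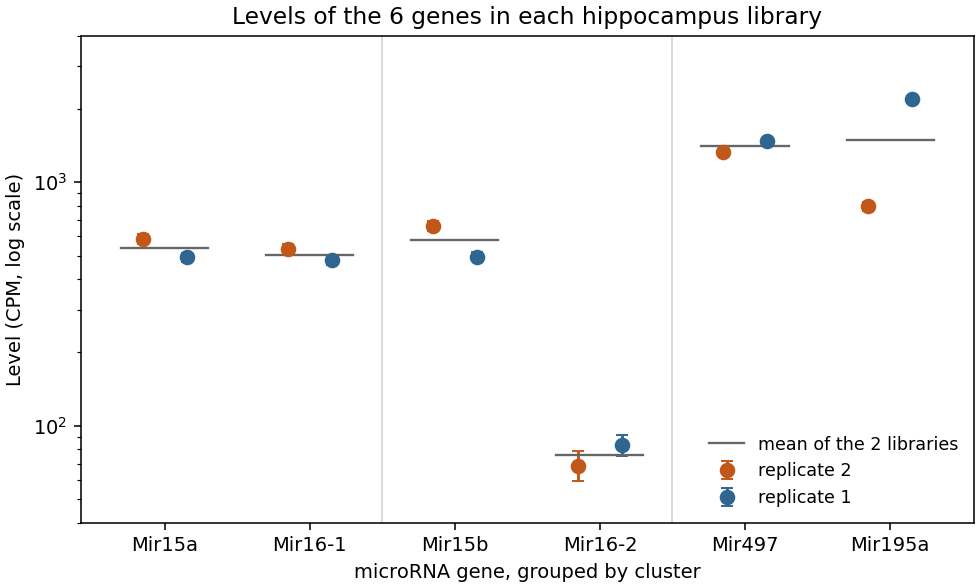
Level of each member in CPM on a log axis, with replicate 2 left of replicate 1, exact Poisson 95% counting intervals as bars, and the mean of both libraries as a grey line. Mir16-2 lies lowest, at 68.4 CPM in replicate 2 and 83.1 CPM in replicate 1, and Mir195a shows the widest gap, with 797 CPM in replicate 2 and 2194 in replicate 1.

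Among the reads counted, the Mir195a and Mir497 genes gave the highest levels of the family. Mir195a had 2273 counts in replicate 2, or 797 CPM (exact Poisson 95% interval 764 to 830), and 10455 counts in replicate 1, or 2194 CPM (2152 to 2237). Mir497 had 3777 counts, or 1324 CPM, in replicate 2 and 7047 counts, or 1479 CPM, in replicate 1. The libraries differed in which gene led, since Mir497 was highest in replicate 2 and Mir195a in replicate 1. Their means, 1496 ± 988 CPM for Mir195a and 1402 ± 109 CPM for Mir497 (SD, n = 2), differed by less than the spread of Mir195a.

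Mir15b, Mir15a and Mir16-1 stood close together in the middle. Mir15b had 661 CPM in replicate 2 and 495 CPM in replicate 1, a mean of 578 ± 117 (SD, n = 2). Mir15a had 584 CPM in replicate 2 and 491 CPM in replicate 1, a mean of 538 ± 66.0. Mir16-1 had 532 CPM in replicate 2 and 478 CPM in replicate 1, a mean of 505 ± 38.3. The 3 kept this order in both libraries, yet each neighbouring difference of means, 40.1 and 33.0 CPM, was smaller than the larger SD of the 2 genes compared. In replicate 1 their counting intervals overlapped. In replicate 2 the interval of Mir15b, 631 to 691 CPM, lay above those of Mir15a, 557 to 613, and Mir16-1, 505 to 559, and the last pair overlapped.

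Mir16-2, the second copy of miR-16, was lowest by a wide margin. It had 195 counts, or 68.4 CPM, in replicate 2 and 396 counts, or 83.1 CPM, in replicate 1, a mean of 75.7 ± 10.4 CPM (SD, n = 2). The gap of 429 CPM to Mir16-1 and the gap of 824 CPM between Mir497 and Mir15b were both larger than the spread between libraries. Reads in the run shared with Mir16-1 are taken to be missing from the count of either copy.

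By mean level among the 2202 genes, Mir195a ranked 92 and Mir497 ranked 96. Mir15b ranked 132, Mir15a 134, Mir16-1 139 and Mir16-2 221. Likeness of pattern was not scored, since 2 libraries of 1 group give no pattern to match, and the genes of nearest mean level are given in its place. Mir29a, at 1505 ± 13.3 CPM (SD, n = 2), was next above Mir195a, Mir666 at 1435 ± 153 next above Mir497, and Mir665 at 549 ± 131 stood between Mir15b and Mir15a. Mir21a at 508 ± 201 CPM was next above Mir16-1, and Mir345 at 77.6 ± 14.0 next above Mir16-2. Below them, Mir7689 followed Mir195a, Mir467d followed Mir497, Mir188 followed Mir15a, Mir125b-2 followed Mir16-1 and Mir181a-2 followed Mir16-2. Mir700 lay next above Mir15b.

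The largest difference between the pools within the family was that of Mir195a. On library sizes scaled by TMM (trimmed mean of M-values), Mir195a had a log2 ratio, replicate 2 over replicate 1, of -1.34 (95% counting interval -1.41 to -1.27), 2.53-fold lower in replicate 2. It was the 1 member of 6 past 2-fold. Of the 450 genes whose counts summed to 20 or more, 22% were past 2-fold, and 11.3% were past it in the same direction. Among the 130 tested genes whose mean CPM lay within the range of the members, 16.9% were past 2-fold. A count of 1 in 6 is close to these shares, and with 1 library per pool the difference has no replicate check. The share of the choroid plexus and ciliated-cell genes was also lower in replicate 2. Their log2 ratios were below 0 in 5 of 5 and past 2-fold lower in 3. White blood cell and microglial genes were likewise below 0 in 5 of 5, with 1 past 2-fold. Of the 450 genes tested, 223 were below 0. Among vessel genes Mir143 gave -0.67, Mir145a -0.46 and Mir126a 0.88. Of the 9 neuronal genes, 2 were past 2-fold lower in replicate 2, Mir128-1 at -1.42 and Mir128-2 at -1.09. Another 5 were past 2-fold higher, Mir212, Mir138-1, Mir138-2, Mir129-1 and Mir129-2, from 1.13 to 1.94. The part of these marker genes in the Mir195a difference was not tested.

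**Figure D2:**
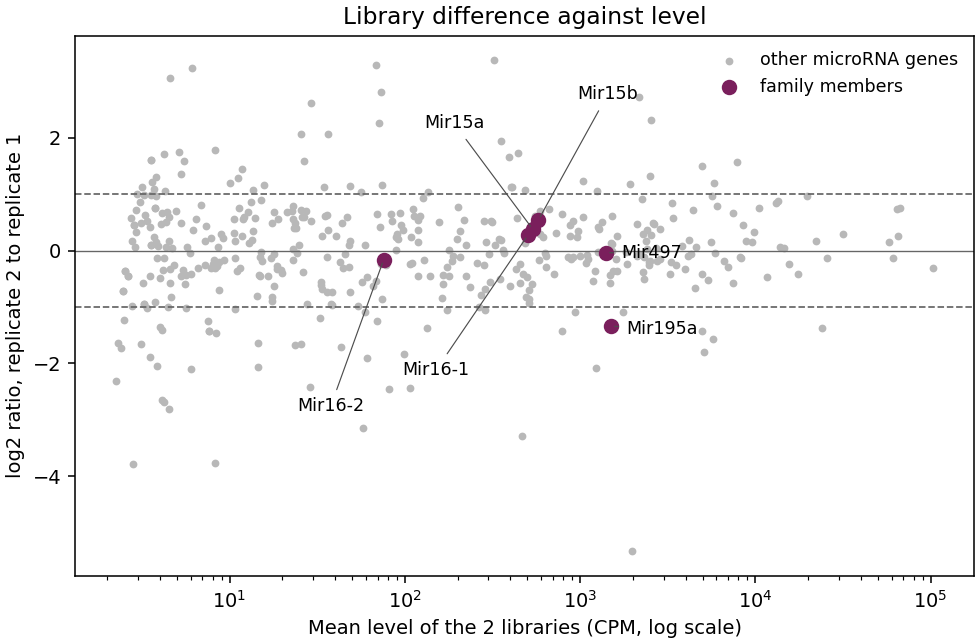
The log2 ratio of replicate 2 to replicate 1 (vertical axis) against mean CPM on a log axis for 450 microRNA genes, with the 6 members in purple and dashed lines at 2-fold. Mir195a, at -1.34, lies below the lower line, and the other 5 members lie between the lines.

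The other 5 members lay between -0.16 and 0.54 in log2 ratio. Mir15b gave 0.54 (0.45 to 0.63), Mir15a 0.37 (0.28 to 0.46) and Mir16-1 0.28 (0.18 to 0.37), so these 3 counting intervals lay above 0. Mir497 gave -0.04 (-0.10 to 0.02) and Mir16-2 -0.16 (-0.41 to 0.09), with intervals that include 0 under TMM scaling. The median over the 6 members was 0.12, against 0.01 over the 450 genes. The SD of the log2 ratio was 0.68 over the 6 members and 0.29 over the 5 without Mir195a, beside 0.99 over all genes tested, which reach down to lower counts.

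Ratios between neighbours in the same library need no scaling of the libraries. Mir195a to Mir497 gave 0.602 in replicate 2 (0.571 to 0.634) and 1.48 in replicate 1 (1.44 to 1.53), so the ratio was 2.47-fold lower in replicate 2 and the intervals were far apart. Mir15a to Mir16-1 gave 1.10 (1.02 to 1.18) in replicate 2 and 1.03 (0.970 to 1.09) in replicate 1, with overlapping intervals. Mir15b to Mir16-2 gave 9.67 (8.34 to 11.3) in replicate 2 and 5.95 (5.35 to 6.64) in replicate 1, a 1.62-fold higher ratio in replicate 2 with separate intervals. The Dleu2 pair thus gave nearly equal counts, while the Smc4 pair was mostly Mir15b, at 90.6% in replicate 2 and 85.6% in replicate 1. On the reading above, both ratios hold for reads outside the shared run of the Mir16 copies.

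**Figure D3:**
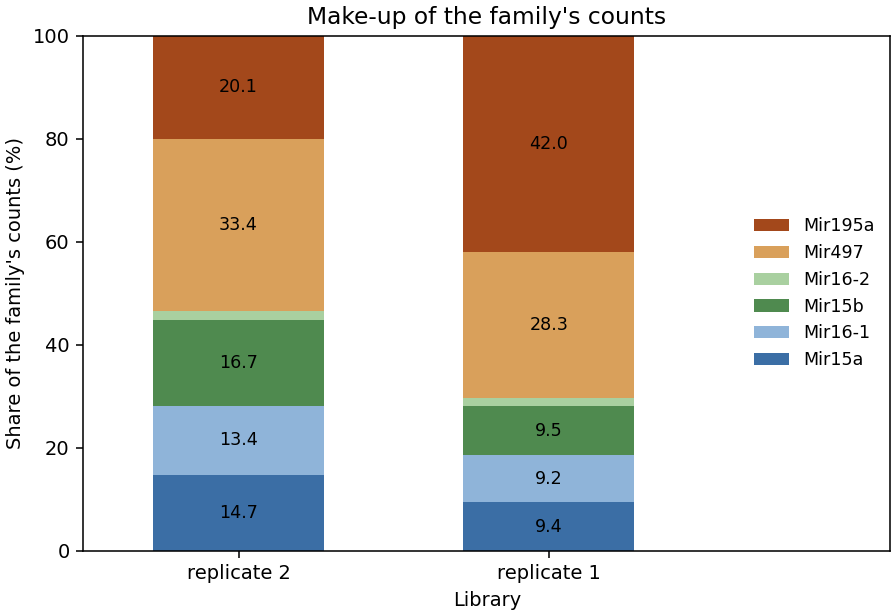
Share of the family's counts held by each member, in percent, with replicate 2 left of replicate 1. Mir195a holds 20.1% in replicate 2 and 42.0% in replicate 1, and Mir497 holds 33.4% in replicate 2 and 28.3% in replicate 1. Reads in the run shared by the Mir16 copies are taken to be missing.

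The make-up of the family's counts differed accordingly. The Mir195a and Mir497 genes held 53.5% of the family's counts in replicate 2 and 70.4% in replicate 1. Mir15a and Mir16-1 held 28.1% in replicate 2 and 18.6% in replicate 1, and Mir15b and Mir16-2 held 18.4% in replicate 2 and 11.1% in replicate 1. In both libraries the chromosome 11 genes led, followed by those on chromosome 14 and those on chromosome 3. Reads in the run shared by the Mir16 copies are taken to be missing from the chromosome 14 and chromosome 3 counts. The shares and this order hold for the counted reads only.

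Among the 5 further genes with the seed, 1 was detected, beside 18.6% of all microRNA genes. Mir322, the mouse orthologue of human miR-424, which acts in muscle cell cycle exit, had 1524 CPM in replicate 2 and 1522 CPM in replicate 1, a mean of 1523 ± 0.908 (SD, n = 2). This SD is far below the counting error, with intervals of 1479 to 1570 CPM in replicate 2 and 1488 to 1558 CPM in replicate 1. With TMM scaling the log2 ratio of Mir322 was 0.12 (0.07 to 0.18). The mean of Mir322 lay above the counted mean of every member, and above that of Mir195a by less than the SD of Mir195a. Its 5p arm is shown to place the seed beside those above, with the seed in capitals.
miR-322-5p: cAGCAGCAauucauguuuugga
Mir503, the neighbour of Mir322, stood at 42.4 CPM in replicate 2 and 48.3 CPM in replicate 1. Mir195b had 0 counts in replicate 2 and 2 in replicate 1, and Mir6342, Mir6353 and Mir6419 had 0 in both. Together the 11 genes with the seed held 0.549% of counts in replicate 2 and 0.674% in replicate 1.

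Genes whose seed is displaced by 1 base were set beside the family. Mir107, Mir103-1 and Mir103-2, which lie in introns of pantothenate kinase genes and are known for acting on metabolism, carry AGCAGCA at bases 1 to 7, in capitals for miR-107-3p.
miR-107-3p: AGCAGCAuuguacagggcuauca
All 3 were past 2-fold in the other direction, as 10.7% of the genes tested were. Mir107 gave a log2 ratio of 2.32 (2.27 to 2.37), with 4181 CPM in replicate 2 and 911 in replicate 1. Mir103-2 gave 2.07 (1.66 to 2.49), and Mir103-1, with 15 counts in replicate 2 and 9 in replicate 1, gave 1.60 (0.31 to 2.97). miR-107-3p needs 22 of its 23 bases to be unique among the hairpins, and shorter reads from its 5′ end match a Mir103 hairpin as well. Runs shared between Mir103-1 and Mir103-2 were not searched, so their counts are not taken as levels of mature microRNAs.

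**Figure D4:**
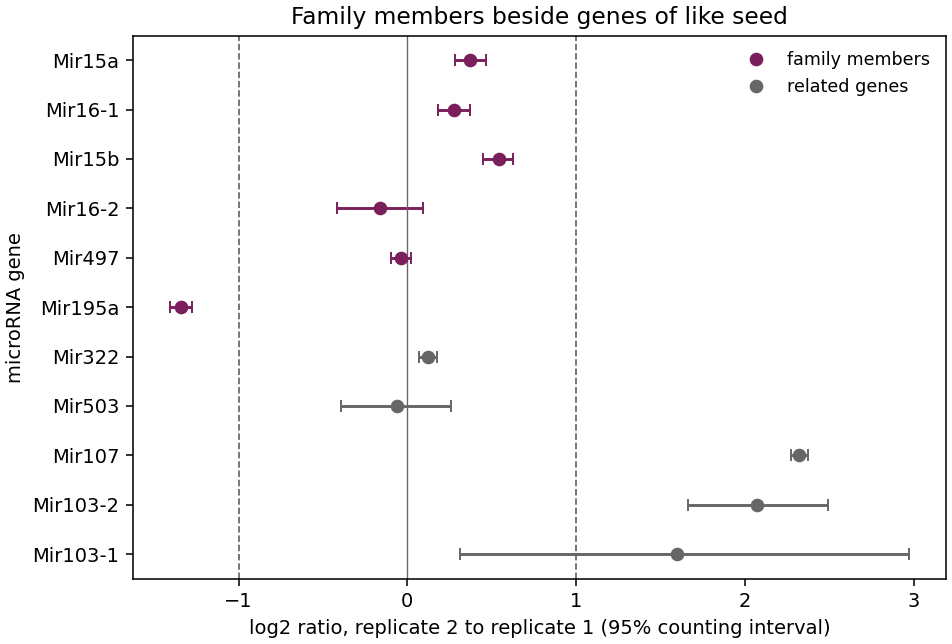
The log2 ratio of replicate 2 to replicate 1 with 95% counting intervals for the 6 members (purple) and 5 related genes (grey), with dashed lines at 2-fold. Mir195a is at -1.34, Mir322 at 0.12 and Mir503 at -0.06, while Mir107 is at 2.32.

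MicroRNAs of the Mir17, Mir106a and Mir106b clusters, which are known for promoting cell division, held more counts than the 6 family genes. The 15 genes of these clusters summed to 0.994% in replicate 2 and 0.997% in replicate 1. Of them, 10 were detected, beside 18.6% of all microRNA genes. On the reading above, the family's counts lack reads in the run shared by the Mir16 copies. Sequences shared among the cluster genes were not searched. The sums thus do not rank these sets by level of mature microRNA. Of 11 tested, none was past 2-fold higher in replicate 2 and 2 were past 2-fold lower, Mir363 with 3 counts in replicate 2 and 74 in replicate 1, and Mir106a with 12 in replicate 2 and 60 in replicate 1, beside the 11.3% of all genes. The median log2 ratio was 0.24. The abundant Mir93 had 3810 CPM in replicate 2 and 4463 in replicate 1, and Mir17 had 2674 CPM in replicate 2 and 2413 in replicate 1. Both genes lay above the counted level of every member in both libraries.

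Strand mattered for 1 member. In the column for the opposite strand all 6 members had 0 counts. Mir497b had 3777 opposite-strand counts in replicate 2 and 7047 in replicate 1, the same numbers as the sense counts of Mir497, and 0 sense counts. When strand is ignored, Mir497 has 0 counts in both libraries.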

How the data were processed

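The authors deposited 1 table of raw counts of reads per microRNA gene for each library, made on mm10 with GENCODE M21 per the README deposited with each sample, and per the labels from RNA of size under 30. Aligner, counter and trimming: not given in the sources used here. The tables have no header: 3 count columns were read as unstranded and each strand, and of the strand columns the one summing to more was used. The 4 lines for reads in no gene stayed out of totals, and 36.4% of all reads in replicate 2 and 36.1% in replicate 1 were assigned to genes.

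All 2202 identifiers matched M21. CPM, mean and SD were computed here. Each read was taken to come from 1 short RNA of a hairpin, so levels were not divided by hairpin length. Ratios used TMM in edgeR 4.0.16 under R 4.3.3 on genes whose counts summed to 20 or more. No p-value was computed, and a gene past 2-fold was counted as called. Intervals are exact at 95%. On simulated libraries with counting noise only, the interval covered the true ratio in 97.1% of 245 unchanged genes. Of these unchanged genes, 2.04% were past 2-fold. Of genes given a log2 change of 1.5, 100 of 100 were past 2-fold. The changed genes were drawn only from those with a summed count of at least 200, so this says nothing of genes near 20.

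Sequences are RefSeq's (GRCm38.p6), and hairpins for matching are the M21 transcripts. The members and lists were chosen with earlier results of these data known. The rule took the members, genes opposite them, genes with the seed, Mir322 and Mir503, the Mir103 and Mir107 genes, the Mir17-type clusters, markers and the genes next in mean level. Python 3.11.15 was used with scipy 1.17.1, numpy 2.4.6, matplotlib 3.10.9 and pandas 2.3.3.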

Additional observations from a re-analysis of the deposited data

How the results depend on the processing

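The call of 1 member past 2-fold, Mir195a, held under DESeq2 1.42.0 size factors, total counts as sizes, the unstranded column, a pseudocount of 10 and, chosen after seeing the data, the members' own total as size. The log2 ratio of Mir195a was -1.41 with DESeq2 size factors and -1.46 with total counts, which shift every ratio by -0.07 and -0.12. Under these, in the same order, Mir497 was at -0.11 and -0.16, and Mir16-2 at -0.23 and -0.28. Whether the counting intervals of Mir497 and Mir16-2 include 0 thus depends on the scaling. Under the members' own total, Mir195a was at -1.065, just past the 2-fold line at -1. Mir497 and Mir16-2 changed sign under that total, to 0.24 and 0.11, and under the other 4 settings no member with counts did. A pseudocount of 10 is small beside the counts of Mir195a, so that setting could not change its call. The share of the family was 0.341% in the unstranded column, where Mir497 has 0 counts, 0.166% of all reads, and 0.397% to 0.522% with either replicate left out. With 2 libraries, leaving 1 out always moves a mean by less than its SD, so it says nothing about stability. Detected members numbered 5 in the unstranded column, against 6. Genes past 2-fold numbered 99 of 450, 170 of 649 with no filter, 52 of 273 at a summed count of at least 200, 101 with DESeq2 size factors, 102 with total counts and 89 of 425 unstranded. Per hairpin length, added after seeing the data, Mir497 takes place 1 and Mir195a place 2, and the other 4 keep theirs. Low counts limit Mir16-2, Mir503, Mir103-2, Mir103-1 and Mir195b. Mir16-2 is also taken to lack reads in the run shared with Mir16-1. No paired analysis was possible because the labels give 1 group.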

Other observations

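Markers of blood, whose red cells carry miR-16 in quantity, and of glia were also read. Red blood cell genes summed to 0.0722% in replicate 2 and 0.0290% in replicate 1, with Mir451a at 663 CPM in replicate 2 and 217 CPM in replicate 1. The higher sum rests on Mir451a, since Mir144 stood at 37.5 CPM in replicate 2 and 47.2 CPM in replicate 1, and Mir486 at 20.7 CPM in replicate 2 and 25.4 CPM in replicate 1. White blood cell and microglial genes summed to 0.152% in replicate 2 and 0.182% in replicate 1. All 5 were detected, beside 18.6% of all microRNA genes, and Mir223 only just, with 10 counts in replicate 2. Oligodendrocyte genes summed to 0.320% in replicate 2 and 0.193% in replicate 1, led by Mir219a-2 at 2583 CPM in replicate 2 and 1247 CPM in replicate 1, while Mir338 stood at 590 CPM in replicate 2 and 664 CPM in replicate 1. Genes of liver, skeletal muscle and heart summed to 0.00652% in replicate 2 and 0.0115% in replicate 1. The share of these genes moved in both directions between the libraries, and their part in the family's levels was not tested.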
